A study of Mus musculus with 12 samples.

Results

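The genes described here are the 4 mouse receptors for the Fc part of IgG (Fcgr1, Fcgr2b, Fcgr3 and Fcgr4) and 2 signalling adaptors, Fcer1g and Tyrobp. They were chosen by name, with earlier results of these data known, so their values are given as a description. Where the fit across all genes placed them past its threshold, the count is stated without p-values and nothing is read from it. All 6 genes were found among 23747 genes kept for analysis, and 9 of the 41174 gene probes on the array report them. Gene expression had been measured on 12 single-colour arrays of scraped colon mucosa, 1 array and 1 colon per mouse. All recipients were wild-type (WT) C57BL/6 mice, carrying C57BL/6 bone marrow from either WT donors or Muc1 knockout (KO) donors. Muc1, which encodes a mucin anchored in the cell membrane, was therefore intact in the non-hematopoietic cells of every mouse, its epithelium included, and lacking only in cells derived from KO marrow. The treated groups, WT_AOMDSS and KO_AOMDSS, had 12.5 mg/kg azoxymethane (AOM), a colon carcinogen, by intraperitoneal injection. From 5 days later they drank dextran sodium sulfate (DSS), which injures the colon lining, at 2% for 4 days, had 14 days of plain water, and went through that cycle again. A last cycle of 2.5% DSS ran for 5 days, and the colon was taken 1 day after it. The groups WT_untreated and KO_untreated had neither agent, and each of the 4 groups held 3 mice. Neither the ages of the mice nor the share of donor-derived cells is given in the sources used here.

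Fc receptors let leukocytes recognise antibody bound to a target. Fcer1g, the common gamma chain, carries an immunoreceptor tyrosine-based activation motif (ITAM) and is the signalling partner of the activating IgG receptors Fcgr1, Fcgr3 and Fcgr4, and of the high-affinity IgE receptor. Tyrobp, also called DAP12, is a second ITAM adaptor that serves other receptors of myeloid and NK cells, such as Trem2 and Clec5a. Fcgr1 (CD64) binds IgG with high affinity, Fcgr3 and Fcgr4 bind immune complexes with lower affinity, and Fcgr2b, the inhibitory member, carries an inhibitory motif (ITIM) and restrains activation in B cells and myeloid cells. In the colon these receptors are carried mainly by macrophages, neutrophils, mast cells and B cells.

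The start regions of the receptor genes are shown because all the genes had higher means after treatment with either marrow. PU.1, a transcription factor of myeloid cells, is known to act on several Fc receptor promoters. A RefSeq table of promoters (build GRCm38.p6) held 5 of the 6 genes, all but Tyrobp. The 120 bases before the annotated start are printed 5′ to 3′ on the gene's own strand. Capitals mark GAGGAA on either strand (read as TTCCTC on the reverse), a core recognised by PU.1, and the STAT-type motif TTCNNNGAA. The regions are chr1:171234350-171234469 (minus strand) for Fcer1g, chr3:96293970-96294089 (minus) for Fcgr1, chr1:171059404-171059523 (minus) for Fcgr3, chr1:171018806-171018925 (plus) for Fcgr4 and chr1:170976072-170976191 (minus) for Fcgr2b.
Fcer1g: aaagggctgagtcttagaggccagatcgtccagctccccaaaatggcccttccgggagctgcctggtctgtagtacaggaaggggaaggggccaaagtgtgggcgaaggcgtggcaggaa
Fcgr1: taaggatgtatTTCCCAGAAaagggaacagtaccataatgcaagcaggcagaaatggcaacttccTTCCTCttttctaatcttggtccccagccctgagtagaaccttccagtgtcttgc
Fcgr3: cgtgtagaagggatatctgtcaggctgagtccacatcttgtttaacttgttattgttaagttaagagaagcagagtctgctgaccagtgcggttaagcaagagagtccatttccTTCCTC
Fcgr4: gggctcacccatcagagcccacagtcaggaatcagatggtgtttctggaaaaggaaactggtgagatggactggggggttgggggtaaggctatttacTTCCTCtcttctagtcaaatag
Fcgr2b: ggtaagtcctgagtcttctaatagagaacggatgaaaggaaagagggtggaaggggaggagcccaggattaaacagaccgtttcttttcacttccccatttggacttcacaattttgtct
The PU.1 core stood at -55 from the start of Fcgr1, -6 from that of Fcgr3 and -22 from that of Fcgr4, by the first base of the match. Fcgr1 alone of the 5 held the STAT-type motif, at -109, and Fcgr3 held a match to the C/EBP-type motif TTGCNNAA at -28. From another annotated start of Fcgr3, not printed here, the PU.1 core stood at -15 and the C/EBP-type match at -37. The windows of 300 bases around the starts of Fcer1g and Fcgr2b held none of the 3 motifs. Among 32851 such windows in the table, 28.3% held GAGGAA, 8.3% TTCNNNGAA and 10.8% TTGCNNAA, so the matches are common and are given as a description only. In the same assembly's gene order, Fcgr2b, Fcgr4, Fcgr3 and Fcer1g lie on chromosome 1 within a run of 11 protein-coding genes, whereas Fcgr1 lies on chromosome 3.

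Values are the log2 processed signal of a probe minus the log2 of the array's 75th percentile, so 0 is the 75th percentile and 1 unit is a doubling. Each gene is followed by its probe with the highest mean, and levels are compared within a probe only. That percentile was 153.2 signal units on WT_AOMDSS 3 and 332 to 767.8 on the remaining arrays. The share of gene probes well above background ran from 58.05% to 78.27%, with 0 saturated gene spots. Each of 3 slides carried 4 arrays. KO_untreated 1 shared slide 1 with all 3 WT_untreated mice. KO_untreated 2 and 3, WT_AOMDSS 3 and KO_AOMDSS 3 made up slide 2, and the other 4 treated mice made up slide 3. On slide 3, which was scanned on another day, the scanner software marked 496 to 781 spots of an array as non-uniform, and on the other slides 4 to 52. All 11 colon epithelium markers measured were well above background on every array, and the epithelial gene Epcam averaged 5.82 to 6.24 in the 4 groups. Muc1 itself averaged -1.82 ± 0.38, -2.94 ± 0.84, -2.39 ± 1.04 and -1.9 ± 0.79 (SD, n = 3) in WT_untreated, KO_untreated, WT_AOMDSS and KO_AOMDSS. Its level in whole mucosa, where the recipient's epithelium carries the gene, checks no label. Across all genes the median change with treatment was -0.24 with WT marrow and -0.11 with KO marrow, and quantile normalization moved these to -0.04 and -0.06.

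Fcer1g, the shared gamma chain, was the gene of the 6 that differed most between the marrows before treatment, by their brightest probes. Its level was 0.39, -0.56 and -0.13 in WT_untreated 1 to 3, and -1.33, -1.83 and -2.04 in KO_untreated 1 to 3. Every untreated KO-marrow mouse lay below every untreated WT-marrow mouse. After treatment the levels were 0.19, 0.41 and 1.05 in treated WT-marrow mice 1 to 3, and 0.39, 0.6 and 0.78 in treated KO-marrow mice 1 to 3. The treated groups overlapped each other and, with WT marrow, also overlapped the untreated mice. In group means the order was KO_untreated (-1.74 ± 0.36, SD, n = 3), WT_untreated (-0.1 ± 0.48), WT_AOMDSS (0.55 ± 0.45) and KO_AOMDSS (0.59 ± 0.2), and only the first step in this order separated groups whose values did not overlap. Fcer1g was 5-fold higher after treatment with KO marrow (2.32 ± 0.24, SE) and 1.57-fold higher with WT marrow (0.65 ± 0.38).

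Tyrobp, the second ITAM adaptor, was higher in all treated than in all untreated mice. Its level was -2.22, -1.32 and -2.4 in WT_untreated 1 to 3, and -2.33, -2.86 and -2.95 in KO_untreated 1 to 3. The untreated groups overlapped through KO_untreated 1. It was 0, 0.61 and 0.46 in treated WT-marrow mice 1 to 3, and -0.65, 0.13 and 0.69 in treated KO-marrow mice 1 to 3, and these groups overlapped too. The group means were -2.71 ± 0.33 (SD, n = 3) in KO_untreated, -1.98 ± 0.58 in WT_untreated, 0.06 ± 0.68 in KO_AOMDSS and 0.36 ± 0.32 in WT_AOMDSS, with the gap between the untreated and the treated pair. Tyrobp was 5.05-fold higher after treatment with WT marrow (2.33 ± 0.38, SE) and 6.82-fold higher with KO marrow (2.77 ± 0.44). Of the 6 genes, by their brightest probes, it had the smallest difference between the marrows before treatment, -0.73 ± 0.39. The adaptors thus differed in the WT-marrow mice: Tyrobp separated treated from untreated mice there and Fcer1g did not.

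**Figure D1:**
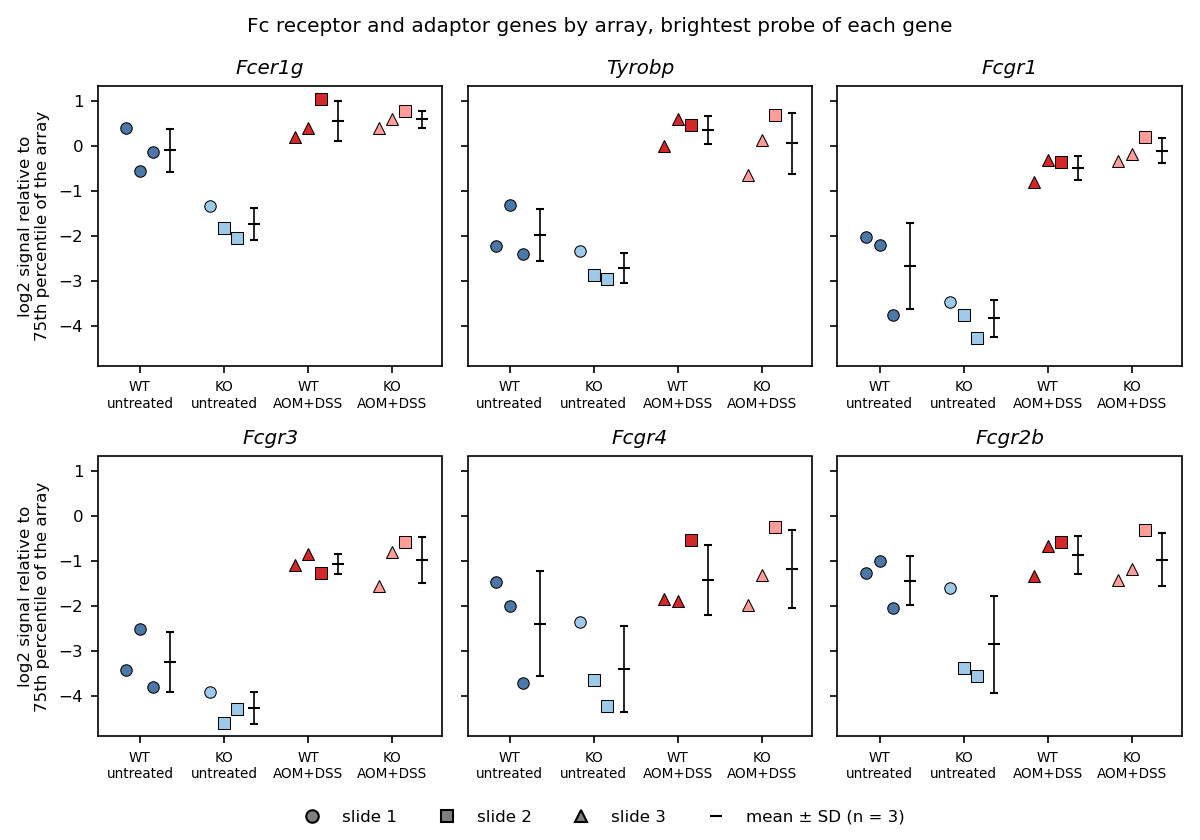
Level of each of the 6 genes on the 12 arrays as log2 signal relative to the 75th percentile of the array (y axis), by group (x axis), with the symbol giving the slide and the bar the mean ± SD of 3 mice. KO_untreated has the lowest mean for every gene, and the treated groups overlap each other for every gene.

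Fcgr1, the high-affinity IgG receptor, showed the largest difference with treatment among the 6 genes by their brightest probes, in KO-marrow mice. Its level was -2.03, -2.21 and -3.76 in WT_untreated 1 to 3, and -3.46, -3.76 and -4.27 in KO_untreated 1 to 3. WT_untreated 3 lay among the KO-marrow mice and the other two WT-marrow mice lay above them. After treatment Fcgr1 stood at -0.8, -0.31 and -0.35 in treated WT-marrow mice 1 to 3, and at -0.34, -0.18 and 0.2 in treated KO-marrow mice 1 to 3. All treated mice lay above all untreated mice. In order, the group means were -3.83 ± 0.41 (SD, n = 3) in KO_untreated, -2.67 ± 0.95 in WT_untreated, -0.49 ± 0.28 in WT_AOMDSS and -0.11 ± 0.28 in KO_AOMDSS, and neighbours within the untreated and within the treated pair overlapped. The difference with treatment was 13.2-fold with KO marrow (3.72 ± 0.29, SE) and 4.53-fold with WT marrow (2.18 ± 0.57).

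Fcgr3, the low-affinity activating receptor, followed the same order of groups. Its level was -3.41, -2.49 and -3.78 in WT_untreated 1 to 3, and -3.9, -4.59 and -4.28 in KO_untreated 1 to 3, without overlap. It was -1.08, -0.83 and -1.26 in treated WT-marrow mice 1 to 3, and -1.54, -0.8 and -0.57 in treated KO-marrow mice 1 to 3. Treated mice again lay above untreated mice with each marrow, while the treated groups overlapped. The means went from -4.26 ± 0.35 (SD, n = 3) in KO_untreated through -3.23 ± 0.66 in WT_untreated to -1.06 ± 0.22 in WT_AOMDSS and -0.97 ± 0.51 in KO_AOMDSS. Fcgr3 was 4.51-fold higher after treatment with WT marrow (2.17 ± 0.4, SE) and 9.74-fold higher with KO marrow (3.28 ± 0.36). Its probe was not well above background in KO_untreated 2, so that value is less certain than the rest. A second probe of Fcgr3 was 4.31-fold higher with WT marrow and 6.63-fold higher with KO marrow, but on it the untreated marrow groups overlapped (-0.29 ± 0.73 against -1.03 ± 0.43 on the first probe).

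Fcgr4, the other low-affinity activating receptor, had the widest spread among the 6 genes, by their brightest probes, in every group but KO_untreated. Its level was -1.46, -2 and -3.69 in WT_untreated 1 to 3, and -2.34, -3.63 and -4.21 in KO_untreated 1 to 3. WT_untreated 3 again lay among the KO-marrow mice, so the groups overlapped. It was -1.84, -1.88 and -0.52 in treated WT-marrow mice 1 to 3, and -1.97, -1.29 and -0.24 in treated KO-marrow mice 1 to 3. With each marrow the third treated mouse, on slide 2, stood above the mice on slide 3. The group means were -3.39 ± 0.96 (SD, n = 3) in KO_untreated, -2.38 ± 1.16 in WT_untreated, -1.42 ± 0.78 in WT_AOMDSS and -1.16 ± 0.87 in KO_AOMDSS, and each overlapped the next. The level was 4.69-fold higher after treatment with KO marrow (2.23 ± 0.75, SE), without overlap. With WT marrow the 1.96-fold difference (0.97 ± 0.81) was little more than its error, and the groups overlapped.

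Fcgr2b, the inhibitory receptor, was reported by 3 probes that did not show the same pattern. On the brightest one, A_51_P130101, the level was -1.25, -0.99 and -2.04 in WT_untreated 1 to 3, and -1.6, -3.37 and -3.55 in KO_untreated 1 to 3. KO_untreated 1, on slide 1 with the WT-marrow mice, lay within their range, and the KO_untreated mice on slide 2 lay well below it. After treatment it was -1.33, -0.66 and -0.56 in treated WT-marrow mice 1 to 3, and -1.41, -1.17 and -0.3 in treated KO-marrow mice 1 to 3. In group means, -2.84 ± 1.08 (SD, n = 3) in KO_untreated was followed by -1.43 ± 0.55 in WT_untreated, -0.96 ± 0.58 in KO_AOMDSS and -0.85 ± 0.42 in WT_AOMDSS, each overlapping the next. By this probe Fcgr2b was 1.49-fold higher after treatment with WT marrow (0.58 ± 0.4, SE), with overlap, and 3.69-fold higher with KO marrow (1.88 ± 0.71), without overlap.

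A second Fcgr2b probe, A_51_P130095, was printed in 10 spots per array whose SD was 0.06 to 0.42. It read -4.27, -2.53 and -4.78 in WT_untreated 1 to 3, and -3.39, -4.67 and -4.54 in KO_untreated 1 to 3, with the marrow groups interleaved. After treatment it read -1.24, -0.44 and -0.43 in treated WT-marrow mice 1 to 3, and -1.38, -1.18 and -0.05 in treated KO-marrow mice 1 to 3, far above every untreated mouse. That made an 8.9-fold difference with WT marrow (3.15 ± 0.73, SE) and a 10.1-fold difference with KO marrow (3.33 ± 0.58). The third probe, A_52_P545613, gave 2.87-fold (1.52 ± 0.36) and 14.4-fold (3.85 ± 0.68), and on it untreated KO-marrow mice lay below untreated WT-marrow mice without overlap (-2.18 ± 0.72), although it was not well above background in KO_untreated 2. All 3 probes were higher after treatment with both marrows, but the size with WT marrow ranged from 1.49-fold to 8.9-fold. Where the 3 probes lie on the transcripts was not analysed here.

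**Figure D2:**
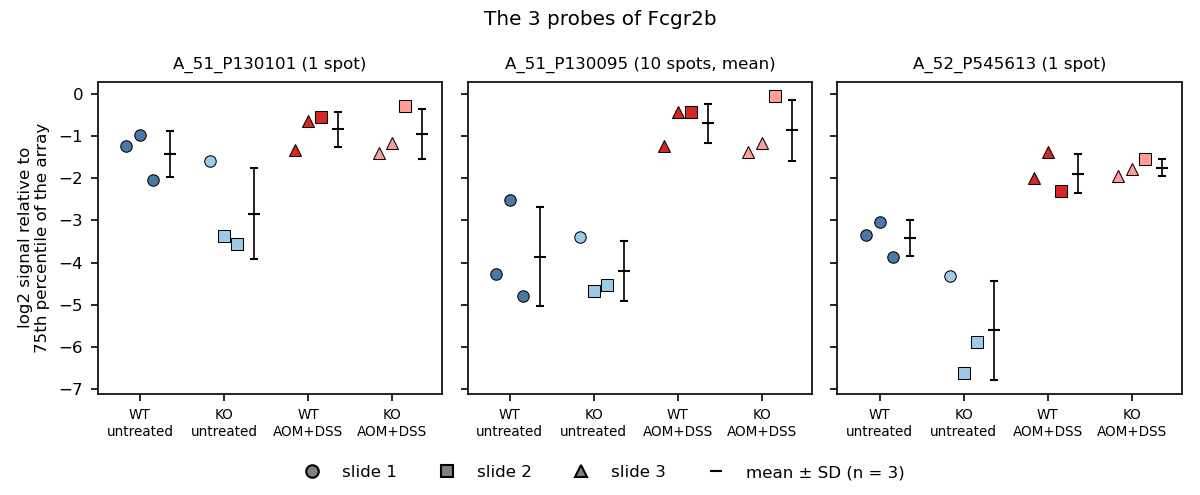
Level of the inhibitory receptor gene Fcgr2b by each of its 3 probes (panels) as log2 signal relative to the 75th percentile of the array, by group, with the symbol giving the slide and the bar the mean ± SD of 3 mice. On A_51_P130101 treated and untreated WT-marrow mice overlap, and on the other probes they do not.

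Set side by side, the 6 genes were all higher after treatment with both marrows by their brightest probes. With WT marrow the changes ran from 0.58 for Fcgr2b to 2.33 for Tyrobp, with a median of 1.57 against -0.24 over all genes. Tyrobp, Fcgr1 and Fcgr3 passed the adjusted threshold of 0.05 in limma's fit and were the ones whose groups did not overlap. Of all genes, 3.61% passed as higher and 10.2% as lower, and 10.7% were higher without overlap. With KO marrow the changes ran from 1.88 for Fcgr2b to 3.72 for Fcgr1, with a median of 2.55 against -0.11 over all genes. All 6 were higher without overlap, as were 10.9% of all genes, and 4 of the 6, all but Fcgr4 and Fcgr2b, passed the threshold, as did 1.85% of all genes in that direction. Because earlier results of these contrasts were known when the genes were chosen, nothing is read from these counts. All 6 stayed higher under each alternative run, but the size moved: with slide as a block the median was 2.94 with WT marrow, where 0 of the 6 then passed the threshold, and 3.44 with KO marrow, where all 6 did.

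No slide held treated and untreated mice with WT marrow, so for them slide and treatment cannot be told apart within a slide. With KO marrow, slide 2 held 1 treated and 2 untreated mice. There the treated mouse was higher by 2.71 for Fcer1g, 3.6 for Tyrobp, 4.21 for Fcgr1, 3.86 for Fcgr3, 3.69 for Fcgr4 and 3.17 for Fcgr2b, each more than over all slides. The median over all genes in that pair was 0.29. KO_AOMDSS 3, the treated mouse in that comparison, was the highest of its group for all 6 genes, as it was for 54.5% of all genes.

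**Figure D3:**
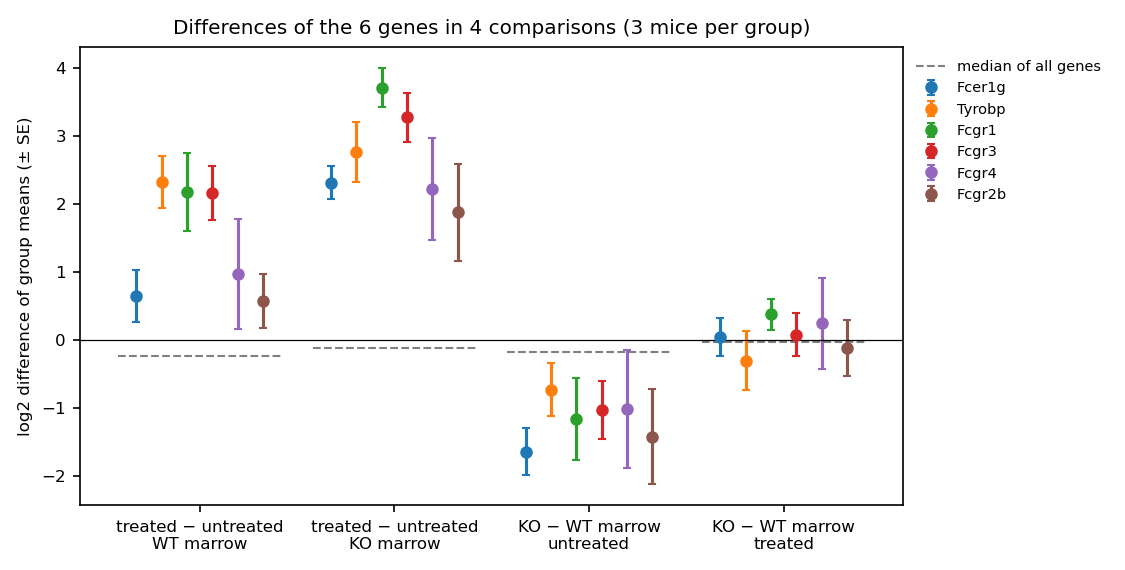
Difference of group means (log2, y axis) ± SE for each of the 6 genes in 4 comparisons (x axis), with 3 mice per group and a dashed line at the median of all genes. The genes lie above 0 in both treatment comparisons, below 0 for KO against WT marrow without treatment, and on both sides of 0 after treatment.

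Without treatment, all 6 genes had lower means in mucosa of KO-marrow than of WT-marrow mice. The differences, KO minus WT, were -1.64 ± 0.35 (SE) for Fcer1g, -0.73 ± 0.39 for Tyrobp, -1.16 ± 0.6 for Fcgr1, -1.03 ± 0.43 for Fcgr3, -1.01 ± 0.87 for Fcgr4 and -1.42 ± 0.7 for Fcgr2b. Fcer1g was 3.11-fold lower and Fcgr3 2.04-fold lower, and for these genes the groups did not overlap. The median was -1.09, against -0.18 over all genes. In limma's fit with Benjamini-Hochberg adjustment 0 of all 23747 genes passed in this comparison (0%), and 2911 had an unadjusted p under 0.05, while 6.57% of genes were lower without overlap. Without KO_untreated 1 the number past the adjusted threshold went from 0 to 1666, of which 1651 were lower, and 2 of the 6 were among them. In whole mucosa, fewer cells of a type and less RNA per cell cannot be told apart.

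The lower values followed the slides in part. KO_untreated 1, the KO-marrow mouse that shared slide 1 with the WT-marrow mice, was the highest of its group for all 6 genes, as it was for 61.1% of all genes. Within slide 1, this mouse differed from the mean of the 3 WT-marrow mice by -1.23 for Fcer1g, -0.35 for Tyrobp, -0.79 for Fcgr1, -0.67 for Fcgr3, 0.05 for Fcgr4 and -0.17 for Fcgr2b. These values are of the brightest probes. Their median within slide 1 was -0.51, smaller in size than over all slides, and the sign turned for Fcgr4. It also turned on Fcgr2b probe A_51_P130095 (0.47) and Fcgr3 probe A_52_P408757 (0.07), but not on Fcgr2b probe A_52_P545613 (-0.91). The sign within slide 1 thus depended on the probe for Fcgr2b and Fcgr3. With 1 KO-marrow array there is no replicate within the slide. WT_untreated 3 was the lowest of its group for 5 of the 6 genes (49.4% of all genes), and without it the median was -1.66. The median was -0.55 by quantile normalization and -0.56 by normexp background correction, with all 6 genes still lower.

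**Figure D4:**
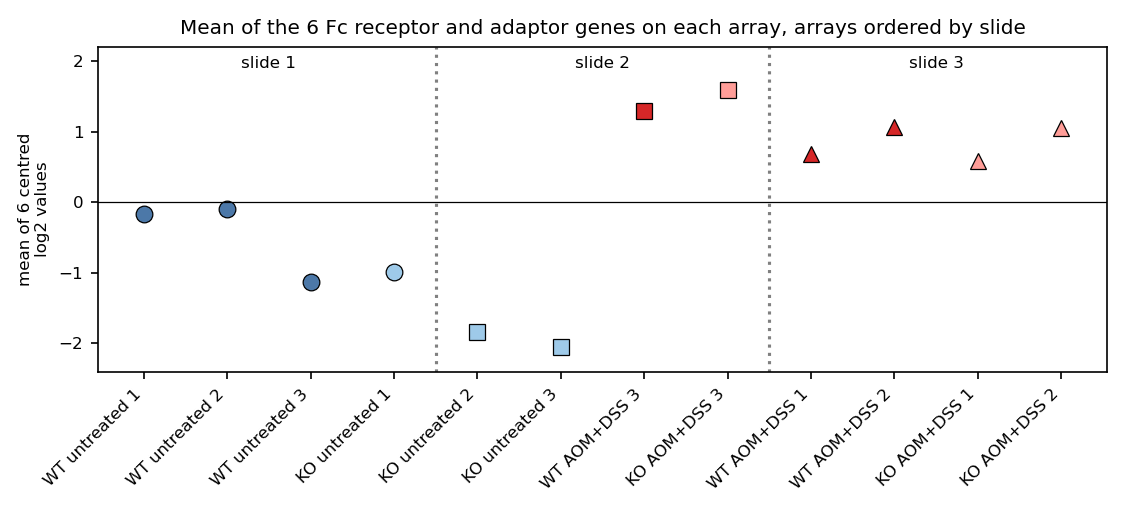
Mean of the 6 genes on each array (y axis, log2 values each centred on the gene's own mean over 12 arrays), with arrays ordered by slide along the x axis. KO_untreated 1 on slide 1 reads -0.99, close to WT_untreated 3 at -1.13, whereas KO_untreated 2 and 3 on slide 2 read -1.84 and -2.05, and the treated arrays lie between 0.58 and 1.59 on slides 2 and 3.

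After treatment the marrows overlapped for every gene. KO minus WT was 0.04 ± 0.28 (SE) for Fcer1g, -0.3 ± 0.43 for Tyrobp, 0.38 ± 0.23 for Fcgr1, 0.08 ± 0.32 for Fcgr3, 0.25 ± 0.67 for Fcgr4 and -0.11 ± 0.41 for Fcgr2b. Without overlap, 1.53% of all genes were higher and 1.09% lower. The median was 0.06, against -0.02 over all genes, and 0 of 23747 genes passed limma's adjusted threshold (0%; 231 had an unadjusted p under 0.05). Within slide 2, with 1 mouse of each marrow, the differences were positive for 5 of the 6 genes and had a median of 0.27. Within slide 3, with 2 of each, they were positive for 3 and had a median of -0.01. By the brightest probes the treatment difference was larger with KO than with WT marrow for all 6 genes. The excess was 1.67 ± 0.45 (SE) for Fcer1g, 0.44 ± 0.58 for Tyrobp and 1.54 ± 0.64 for Fcgr1. It was 1.11 ± 0.54 for Fcgr3, 1.26 ± 1.1 for Fcgr4 and 1.31 ± 0.81 for Fcgr2b. On other probes it was 0.62 ± 0.78 for Fcgr3 (A_52_P408757), and 0.18 ± 0.93 (A_51_P130095) and 2.33 ± 0.77 (A_52_P545613) for Fcgr2b. The median by the brightest probes was 1.29, against 0.18 over all genes. That value uses the same untreated arrays as the preceding comparison and is not separate from it, and 0 of 23747 genes passed limma's adjusted threshold for it (0%; 829 had an unadjusted p under 0.05).

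The authors' table of 2506 probes, deposited as differentially expressed, holds group means. It lists 8 of the 9 probes and lacks the brightest probe of Fcgr2b. In the authors' deposited table treated minus untreated was 0.67 with WT and 2.33 with KO marrow for Fcer1g, and 2.36 and 2.78 for Tyrobp. In the authors' deposited table Fcgr1 stood at 2.2 and 3.73, Fcgr4 at 0.99 and 2.24, and Fcgr2b at 3.18 and 3.34 by the probe of 10 spots. Its group means without treatment placed KO below WT marrow on all 8 probes, from -0.29 on the second Fcgr3 probe to -2.18 on the third Fcgr2b probe, per the authors' deposited table. These means are of the same arrays, and of probes deposited as differentially expressed, so they give no separate support.

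The wider pathway was followed in 5 lists of other genes, 63 of which were measured: receptors that pair with Fcer1g or Tyrobp, kinases and adaptors downstream of ITAMs, inhibitory receptors and phosphatases, other Fc receptors, and immunoglobulin and plasma cell genes. With WT marrow 14 of the 63 rose with treatment and 2 fell in limma's fit with Benjamini-Hochberg adjustment (25.4%, against 13.8% of all genes), with a median change of 0.47. With KO marrow 15 rose and 0 fell (23.8%, against 3.15% of all genes), with a median of 0.83. By direction, 3.61% of all genes rose and 10.2% fell with WT marrow, and 1.85% rose and 1.31% fell with KO marrow. The counts of the single lists below stand against these shares, and a single fall in a list with WT marrow is near its share. The counts rested on few arrays and on the processing. With WT marrow 16 passed, against 4 with slide as a block and 9 by normexp, and on leaving out 1 array 6 to 22, with 9 or fewer without any 1 WT_untreated mouse, WT_AOMDSS 1 or WT_AOMDSS 2. With KO marrow it was 28 with slide as a block and 6 to 19 on leaving out 1 array, with 9 or fewer without KO_untreated 2 or 3 or KO_AOMDSS 2 or 3. In either marrow comparison and in the difference between treatment effects, 0 of the 63 passed, and their medians were -0.47 without treatment, 0.02 after treatment and 0.47 for the difference. Without KO_untreated 1, 6 of the 63 passed between the untreated marrows, as did 1666 of all 23747 genes.

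Several receptors that signal through the same adaptors rose with treatment. Of 13 measured, 5 rose and 1 fell with WT marrow (median 0.98), and 6 rose and 0 fell with KO marrow (median 1.85). Clec4e (Mincle), a lectin that signals through Fcer1g, was 59.6-fold higher with WT marrow (log2 change 5.9 ± 0.79, SE, adjusted p = 0.00213 in limma). Its probe was not well above background on any untreated WT-marrow array. Under normexp the change was smaller, 2.9 with WT and 2.77 with KO marrow. With KO marrow its change was 5.7 ± 0.79 (adjusted p = 0.00197, limma), where 1 of the 3 untreated arrays was well above background. Where untreated arrays were at background, the size of a change is uncertain. Clec4e and Clec4d met the background filter through the treated groups only, so their being counted is not independent of their rise. Clec4d, a related lectin that also uses Fcer1g, rose by 5.43 ± 1.05 with WT marrow (adjusted p = 0.0113, limma), with its probe well above background on 1 of the 3 untreated arrays. Clec5a, a partner of Tyrobp, rose by 3.78 ± 0.65 with WT and 3.9 ± 0.65 with KO marrow (adjusted p = 0.00689 and 0.0058, limma). Its probe with either marrow, and those of Trem2, Pilrb1, Lcp2 and Lilrb4a with KO marrow, were well above background on 2 of the 3 untreated arrays. Trem2, a lipid-binding partner of Tyrobp, rose by 3.43 ± 0.56 with KO marrow (adjusted p = 0.00495, limma), as did Pilrb1, by 2.78 ± 0.55 (adjusted p = 0.0149). Both also passed with WT marrow, Trem2 at 2.11 ± 0.56 (adjusted p = 0.0315, limma) and Pilrb1 at 2.24 ± 0.55 (adjusted p = 0.025). Their WT-marrow calls were not followed singly through the alternative runs. Oscar, a collagen receptor that pairs with Fcer1g, fell by 2.68 with WT marrow (adjusted p = 0.0131, limma). Clec4e and Clec5a passed under every alternative run and without any 1 array. With slide as a block and WT marrow the change was -0.46 for Oscar (adjusted p = 0.707) and 8.18 for Clec4d (adjusted p = 0.0812), and under normexp the calls of Oscar (adjusted p = 0.206) and, with KO marrow, of Trem2 (0.0999) and Pilrb1 (0.127) ended in limma. The call of Clec4d also ended without WT_AOMDSS 1 (adjusted p = 0.0511), that of Oscar without WT_untreated 1 or 2 (up to 0.0608) and that of Pilrb1 without KO_untreated 2 or 3 or KO_AOMDSS 3 (up to 0.0874), all in limma.

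Downstream of the ITAM, 4 of 19 kinases and adaptors rose with WT marrow and 3 with KO marrow, and 0 fell (medians 0.37 and 0.49). Syk, the kinase that docks on phosphorylated ITAMs, rose by 1.24 ± 0.3 (SE) with WT marrow (adjusted p = 0.024, limma). Lcp2 (SLP-76), a scaffold that Syk phosphorylates, rose by 1.99 ± 0.47 with WT and 2.51 ± 0.47 with KO marrow (adjusted p = 0.023 and 0.0115). Pik3cd, the leukocyte PI3-kinase subunit, rose by 1.94 ± 0.54 and 2.41 ± 0.54 (adjusted p = 0.0356 and 0.0274). Sh3bp2, an adaptor that binds Syk, rose by 1.99 ± 0.38 with WT marrow (adjusted p = 0.0109), and Lyn, a kinase that phosphorylates ITAMs and ITIMs, rose by 1.7 ± 0.27 with KO marrow (adjusted p = 0.00961). Outlier spots left Lyn with 2 treated KO-marrow values and 1 treated WT-marrow value. With slide as a block the 4 called with WT marrow did not pass in limma (adjusted p of 0.0547 for Lcp2, 0.0649 for Pik3cd, 0.375 for Sh3bp2 and 0.664 for Syk), and the 3 called with KO marrow did. Under normexp Lcp2 did not pass with either marrow (adjusted p = 0.105 and 0.265, limma), nor did Syk (0.204) or Pik3cd with WT marrow (0.0639), and the call of Lyn ended when its probes were averaged (0.548). With the replicate block Pik3cd had an adjusted p of 0.0576 with either marrow in limma. Leaving out 1 array ended the WT-marrow calls of Lcp2, Syk and Pik3cd for 5 of the 6 arrays, all but WT_AOMDSS 3, and that of Sh3bp2 without WT_untreated 1. With KO marrow the call of Lyn ended without KO_untreated 3 or KO_AOMDSS 2, that of Lcp2 without KO_untreated 2 or 3 or KO_AOMDSS 3, and that of Pik3cd without any array but KO_untreated 1.

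Inhibitory receptors that, like Fcgr2b, carry ITIMs also rose in part. Of 16 receptors and phosphatases, 4 rose and 1 fell with WT marrow, and 4 rose and 0 fell with KO marrow (medians 0.49 and 0.73). Sirpa, the myeloid receptor for CD47, rose by 3.15 ± 0.38 (SE) and 3.43 ± 0.38 with WT and KO marrow (adjusted p = 0.00166 and 0.000658, limma). Pirb, an inhibitory receptor of myeloid and B cells, rose by 3.92 ± 0.65 and 4.18 ± 0.65 (adjusted p = 0.00585 and 0.00361), and both genes passed with slide as a block and without any 1 array. When the probes of Sirpa were averaged it did not pass (adjusted p = 0.275 and 0.118, limma). Pilra was at least 5.26-fold higher with WT marrow (adjusted p = 0.0223, limma) and rose by 3.01 ± 0.65 with KO marrow (adjusted p = 0.0229), where 1 of the 3 untreated arrays was well above background. Lilrb4a rose by 3.08 ± 0.6 with KO marrow (adjusted p = 0.014, limma). The calls of Pilra (adjusted p = 0.156 and 0.606) and Lilrb4a (0.446) ended under normexp in limma, and that of Pilra with WT marrow also with slide as a block (0.14). Under normexp the log2 change of Pilra with WT marrow was 1.65, so the fold of at least 5.26 holds for the processed signal only. Leaving out 1 array ended the call of Pilra for 3 arrays with WT marrow (WT_untreated 1, WT_AOMDSS 1 or 2) and 4 with KO marrow (KO_untreated 2 or 3, KO_AOMDSS 2 or 3), and that of Lilrb4a for 3 (KO_untreated 2 or 3, KO_AOMDSS 3). Cd33, a sialic acid-binding lectin, fell by 2.07 with WT marrow (adjusted p = 0.0464, limma), but its change was 0.64 after normexp background correction (adjusted p = 0.458) and -0.3 when slide was a block (adjusted p = 0.882), and leaving out any of the 6 WT-marrow arrays ended its call.

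Of 8 other Fc receptors measured, 0 passed with either marrow (medians -0.15 and 0.13). The nearest were Trim21, a cytosolic antibody receptor, with 0.65 in WT-marrow mice (adjusted p = 0.109, limma) and Fcrls with 1.64 in KO-marrow mice (adjusted p = 0.0939). Fcrls passed with slide as a block (2.18, adjusted p = 0.0108, limma) and without KO_untreated 1, and Trim21 by quantile normalization. Of 7 immunoglobulin and plasma cell genes, 1 rose with WT marrow and 2 with KO marrow (medians 1.35 and 2.15). Jchain, which joins polymeric IgA and IgM, rose by 2.33 ± 0.41 (SE) and 2.63 ± 0.41 (adjusted p = 0.00758 and 0.00371, limma), and Prdm1, a factor of plasma cell differentiation, rose by 2.22 ± 0.48 with KO marrow (adjusted p = 0.0245). With slide as a block the call of Jchain with WT marrow ended (adjusted p = 0.323, limma), and that of Prdm1 ended without any KO-marrow array but KO_AOMDSS 1 (up to 0.118).

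**Figure D5:**
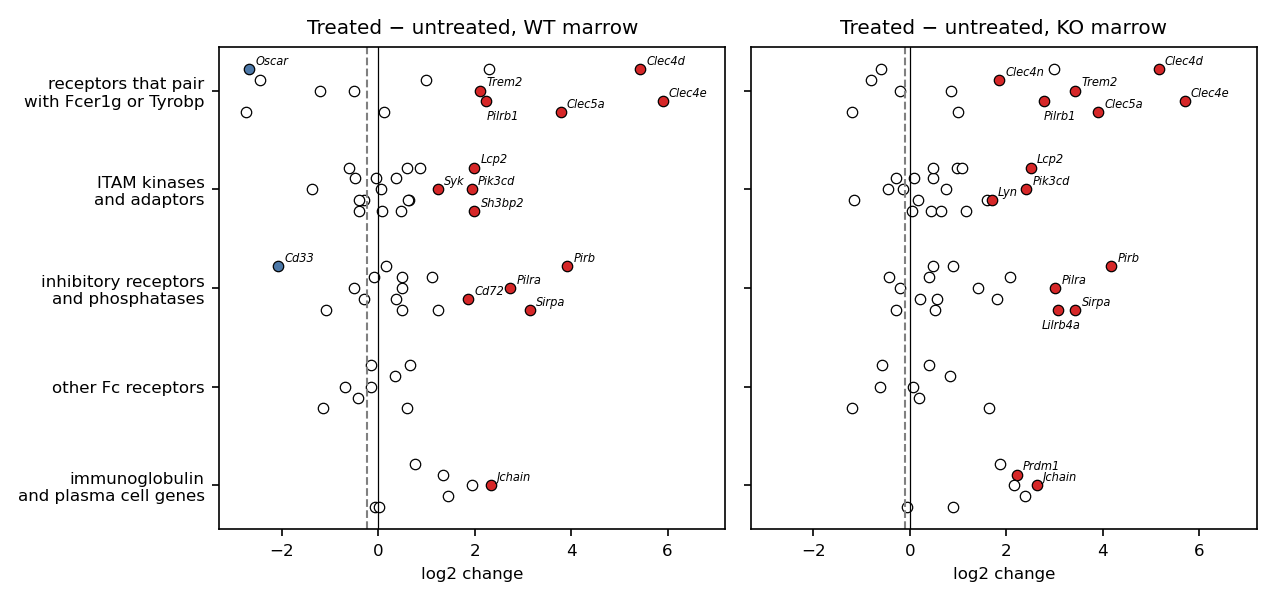
Log2 change with treatment (x axis) of the 63 other pathway genes in 5 lists (y axis), with WT marrow on the left and KO marrow on the right, each point 1 gene, red for genes that rose and blue for genes that fell past the adjusted threshold, and the dashed line at the median of all genes. Clec4e and Clec4d lie farthest to the right in both panels, and no gene of the other Fc receptors passed.

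Between the marrows, no list held a gene past the threshold in limma. The nearest without treatment were Pilrb2 at -2.14 (adjusted p = 0.404), Dok2 at -1.3 (adjusted p = 0.404), Mzb1 at -1.07 (adjusted p = 0.416), Fcrls at -0.98 (adjusted p = 0.41) and Prkcd at 0.8 (adjusted p = 0.404). Without KO_untreated 1, all of these but Mzb1 passed, as did 1666 of all 23747 genes. After treatment they were Lyn at 0.99 (1 WT-marrow against 2 KO-marrow values), Cd33 at 1.12, Oscar at 0.68, Jchain at 0.62 and Fcgrt at 0.57 (adjusted p = 1 each, limma). For the difference between treatment effects they were Cd33 at 2.55, Oscar at 2.08, Mzb1 at 1.11, Lyn at 1.08 (with 1 treated WT-marrow value) and Fcrls at 1.04 (adjusted p = 0.897 each, limma).

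Some markers of macrophages and of neutrophils rose with treatment. Of 14 monocyte and macrophage markers, 8 rose with each marrow in limma's adjusted test and 0 fell (medians 2.09 with WT and 2.33 with KO marrow), against 3.61% and 1.85% of all genes that rose. Their summed signal, in units of the array's 75th percentile, was 12.7 to 38.9 in WT_untreated, 11.1 to 20.3 in KO_untreated, 49.9 to 76.9 in WT_AOMDSS and 54.9 to 72.8 in KO_AOMDSS, and at least 12 of the 14 were above background on every array. Csf1r, the receptor for macrophage growth factor, averaged -2.38 ± 0.54, -3.24 ± 0.46, -1.07 ± 0.34 and -0.93 ± 0.24 (SD, n = 3) in those groups. Its call with WT marrow ended in 10 of 15 alternative runs, those without 1 array included. With its probes averaged the change was 0.47 with WT and 0.93 with KO marrow (adjusted p = 0.527 and 0.432, limma). Of 11 neutrophil markers, 6 rose with WT and 7 with KO marrow, and their sum was 1.98 to 3.26, 2.07 to 5.23, 55.6 to 123 and 15.9 to 65. Between 4 and 6 of the 11 neutrophil markers were above background on an untreated array and 10 or 11 on a treated one. Markers such as Csf3r, Retnlg and Mmp8 met the background filter through treated groups only, so the count of rises is not independent of it. Of 9 mast cell markers, 4 rose and 2 fell with WT marrow and 4 rose with KO marrow, and of 6 B cell markers 0 rose and 1 fell with WT marrow, and 0 passed with KO marrow. Among all genes 10.2% fell with WT marrow. The pan-leukocyte sum was 5.05 to 12.6, 3.29 to 8.29, 9.6 to 21.1 and 8.53 to 17.9, while Ptprc, the leukocyte surface gene CD45, differed by 0 with WT marrow (adjusted p = 1, limma) and by 1.02 with KO marrow (adjusted p = 0.323). The part of these cells in the values of the 6 genes was not tested.

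Without treatment the marker lists had median differences below 0 for KO minus WT marrow, as the 6 genes did, and 0 of their genes passed in limma. The median difference was -0.49 for macrophage, -0.58 for neutrophil, -1 for mast cell, -1.37 for B cell, -0.95 for T cell, -1.38 for dendritic cell, -1.74 for NK cell and -0.67 for pan-leukocyte markers, and -0.07 for colon epithelium. In KO_untreated 1, on slide 1 with the WT-marrow mice, several sums lay within the WT_untreated range. They were 20.3 for macrophage (12.7 to 38.9), 2.07 for neutrophil (1.98 to 3.26), 3.15 for B cell (1.37 to 5.28) and 8.29 for pan-leukocyte markers (5.05 to 12.6). Below that range were mast cell (2.68), dendritic cell (7.84) and NK cell markers (0.162), and T cell markers (2.42) were at its lower end. The part of these cells in the difference between the marrows was not tested.

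The pattern of each of the 6 genes over the 12 arrays was set against the mean of the 6. With each gene centred on its own mean, the mean of the 6 was -0.46 in WT_untreated, -1.63 in KO_untreated, 1.02 in WT_AOMDSS and 1.07 in KO_AOMDSS, and the single genes lay 0.39 (Tyrobp) to 0.5 (Fcgr1 and Fcgr2b) from it, as the root mean square difference over arrays. In WT_untreated the centred means of the 6 genes ran from -0.91 (Tyrobp) to 0.09 (Fcgr2b). Among 13383 genes with a symbol, those nearest to the mean of the 6 were Lcp2 and Adamts1 at 0.29, Cd300c2 and Slc2a3 at 0.32, Csf1r at 0.33, Pip4k2a and Gng2 at 0.34 and Dennd1c at 0.35. Each of these lay nearer to it than any of the 6 did. The nearest gene to Tyrobp alone was Lcp2 (0.31), to Fcgr1 Trem2 (0.36), to Fcgr3 also Trem2 (0.35), to Fcgr4 Gpr84 (0.44), to Fcgr2b Sla (0.25) and to Fcer1g Amz1 (0.38). All points share the same 12 libraries and slides, so this likeness is a description. The 6 other measured genes within the chromosome 1 run, chosen after their values were seen, differed between treated and untreated mice by -3.22 to 0.15 with WT marrow and -2.28 to -0.18 with KO marrow.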

How the data were processed

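RNA of scraped colon mucosa had been labelled with Cy3 and hybridised to Agilent mouse arrays (design 014868), per the labels' protocols. The authors deposited spot intensity from Feature Extraction 10.7.3.1, background-corrected within the array and not scaled between arrays, per the file headers. A further deposited table lists log2 values averaged by the authors over each group, for 2506 probes. A comparison with the arrays showed them centred on each probe's median (correlation across probes 0.995 to 0.998). The table's name marks these probes as differentially expressed, but by what test or threshold is not stated.

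Signals were read in R 4.3.3 (package data.table, version 1.17.8) as log2 processed signal minus the array's 75th percentile. Of 45018 spots, 43379 gene spots were used, outlier spots set to missing (no value of the 6 genes was) and spots of a probe averaged. A probe was kept if well above background on all 3 arrays of a group (30219 probes). Genes dim without treatment, such as Clec4e, Clec4d, Pilra and several neutrophil markers, were kept through treated groups only. Counts of rises are therefore not independent of this filter. Names came from RefSeq accessions (GRCm38.p6, names and gene order only), with a symbol for 24375 probes, and each gene took its brightest kept probe.

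Limma 3.58.1 was fitted to all 12 arrays with 4 group means, a variance trend and 8 residual degrees of freedom, with Benjamini-Hochberg adjustment over 23747 genes in each of 5 comparisons, and was tested on simulated data. The comparisons share groups, so they are not independent. P values measure the spread between the mice of a group, 3 per group except where an outlier spot was missing (among named genes Lyn, with 1 value in WT_AOMDSS and 2 in KO_AOMDSS, and Pilrb2, with 2 in WT_AOMDSS). For the 6 genes the SE is that of the difference of group means from the mice's own SD, and for other genes it is limma's. A fold of "at least" sets the brighter group's mean against the lowest signal well above background on each array of a group where the probe was not above it, or the probe's own if higher. It applies to the processed signal and is no bound under other background correction.

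The 6 genes, the lists and the tests were chosen with earlier results of these data known. From each list the text names up to 4 genes past the threshold with the largest moderated statistic, or the nearest 1 where none passed, besides Csf1r, Ptprc, Epcam and the 8 genes of most similar pattern. Trem2 and Pilrb1, named for KO marrow, are given for WT marrow too. Muc1 is given as the targeted gene. Alternatives were quantile normalization, normexp (offset 50), another percentile base, no dim-probe filter, mean of probes, outliers kept, no variance trend, slide or replicate number as a block, within-slide values and leaving out each array. The files held no mean signal column, so normexp used the median signal. Same-numbered arrays of the treated marrow groups deviated together across genes (correlations 0.42, 0.31 and 0.51), where they also shared a slide; in the other comparisons at least 1 correlation was below 0.1.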

Additional observations from a re-analysis of the deposited data

Results flagged for a closer look

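Fcgr1, the high-affinity IgG receptor, differed between the marrows in opposite directions without and with treatment. Every KO_untreated mouse lay below the WT_untreated mean and every KO_AOMDSS mouse above the WT_AOMDSS mean, KO minus WT being -1.16 and 0.38, a gap of 1.54. The gap is the difference between the treatment effects, for which 0 of 23747 genes, Fcgr1 included, passed limma's adjusted threshold and 829 had an unadjusted p under 0.05.

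Cd33, a sialic acid-binding lectin of the inhibitory list, showed the same kind of crossing. Its change with treatment was -2.07 with WT marrow and 0.48 with KO marrow, a gap of 2.55, and its KO minus WT difference was -1.43 without and 1.12 with treatment, which is the same gap. In limma that gap had an adjusted p of 0.897. Over the alternative runs the gap ran from -0.1 to 3.17, and the KO minus WT difference with treatment from -0.71 to 1.46. The crossing thus depended on the processing. The probe of Cd33 was well above background on 2 of 3 treated WT-marrow arrays, and was not in KO_untreated 2.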

How the results depend on the processing

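The direction of the 6 genes' median held under every alternative run for the 4 comparisons other than KO against WT marrow after treatment, where it was near 0 throughout (-0.16 to 0.25 on leaving out an array). Slide as a block moved the median to 2.94 (treated, WT marrow), 3.44 (treated, KO marrow), -0.51 (KO against WT, untreated) and 0.48 (difference of treatment effects), and moved the median of all genes to 0.47 and 0.44 in the treatment comparisons. Normexp gave 1.92 (treated, KO marrow), -0.56 (untreated marrows) and 0.58 (difference), quantile normalization -0.55 (untreated marrows), and the Fcgr2b probe of 10 spots, chosen after seeing the data, 2.18 (treated, WT marrow). The causes were not tested.

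Leaving out each array gave medians of 1.13 to 1.78 (treated, WT marrow), 2.34 to 2.88 (treated, KO marrow), -1.66 to -0.88 (untreated marrows, the lowest without WT_untreated 3) and 0.94 to 1.76 (difference). Of the 63 pathway genes, 16 passed with WT marrow, 9 under normexp and 4 with the slide block, and 6 to 22 on leaving out an array. With KO marrow 15 passed, 28 with the slide block, and 6 to 19 on leaving out an array. Between untreated marrows 0 to 6 passed, the 6 without KO_untreated 1, where 1666 of all genes passed; after treatment, and for the difference, 0 passed in each case. Cd33 reversed under normexp with WT marrow (0.64). Over all genes 3279 passed with WT marrow (858 higher, 2421 lower), against 4380 by quantile normalization (1743 and 2637), 855 by normexp (308 and 547) and 127 with the slide block (111 and 16). With KO marrow 749 passed, and 1725 with the slide block. On leaving out an array these counts were 487 to 7607 and 251 to 1268.

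The replicate block left the 5 medians at 1.57, 2.55, -1.09, 0.06 and 1.29, and called 2329 genes with WT and 714 with KO marrow. With WT marrow 1598 genes were then lower, against 2421 without the block, and among named genes it ended the calls of Cd33 (adjusted p = 0.0582, WT marrow) and Pik3cd only. Dim probes limit the untreated values: Fcgr3 was not well above background in KO_untreated 2, nor were the second Fcgr3 probe and some spots of the Fcgr2b probe of 10 spots in WT_untreated 1 and KO_untreated 2.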
